A study of Mus musculus with 15 samples.

Results

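Cirbp and Rbm3 encode RNA-binding proteins named for, or best known for, their induction by mild cold. They were followed here as 2 of the 18804 genes in a count table of cultured white adipocytes, and were taken by symbol; 14293 genes had enough counts to be tested, both of these among them. The question was how far each gene responded to 31°C, a cool but physiologic temperature for white fat, after short and long exposure, and whether the 2 responses followed the same course. The adipocytes came from mesenchymal stem cells of C57BL/6J mice, which the study's methods say were isolated from ears. All cultures received the same adipogenic mix of methylisobutylxanthine, dexamethasone, insulin and a thiazolidinedione, given as troglitazone in the labels and as rosiglitazone in another part of the study's methods, and all were harvested on day 16 of differentiation. The group of 0 days stayed at 37°C, the group of 1 day was moved to 31°C on day 15, and the group of 12 days was moved on day 4, so that the last group also passed most of its maturation in the cool. There were 5 libraries in each group. The sources used here do not tell if the 5 libraries of a group stem from different mice or dishes, so p-values measure the spread between these libraries, which may be technical.

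Both proteins carry 1 RNA recognition motif followed by a glycine-rich tail, and both bind and stabilise transcripts and support translation when a cell is cooled. In most mammalian cells their mRNAs rise after a shift of a few degrees below core temperature, which sets them apart from the heat shock proteins. Cirbp was first described as an mRNA induced in mouse cells by mild hypothermia, and it has been tied to the daily rhythm of body temperature and, when released from cells, to inflammation. Rbm3 lies on the X chromosome and is studied mostly for protection of neurons and synapses in cooled brain.

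Cirbp (ENSMUSG00000045193.13) lies at chr10:80165985-80172786 on the plus strand of GRCm38, the same build as mm10, and shares no exon base with another annotated gene. The GENCODE annotation gives it 7 transcripts, of which 2 are protein coding, 1 is a target of nonsense-mediated decay and 4 retain an intron. Rbm3 (ENSMUSG00000031167.16) lies at chrX:8138975-8145880 on the minus strand and has 11 transcripts, of which 6 are protein coding, 2 are targets of nonsense-mediated decay and 2 retain an intron. The counts were made per gene, so these forms were not separated. An antisense gene, Rbm3os (listed as 2900002K06Rik), shares 94 exon bases with Rbm3, which is 2.00% of its exon length, and the strand setting of the counting was not given in the sources used here. The antisense gene was counted at 0.342, 0.34 and 0.311 CPM in the 3 groups, far under Rbm3 itself.

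The sequence before the Cirbp start site is shown because cold induction of this gene has been assigned to its promoter, where a short motif called the mild-cold responsive element and Sp1 sites have been described. The RefSeq table for GRCm38.p6 holds 2 windows for Cirbp, each with 250 bases before an annotated start and 50 after it. These starts, bases 80167839 and 80168171, lie inside the GENCODE span of Cirbp, which begins at 80165985. Distances to neighbouring genes were taken from the GENCODE span. In the first window, at chr10:80167589-80167888 on the plus strand, capitals mark each match on either strand to the mild-cold responsive element (TCCCCGCC) and to the GC box bound by Sp1 (GGGCGG).
Cirbp promoter: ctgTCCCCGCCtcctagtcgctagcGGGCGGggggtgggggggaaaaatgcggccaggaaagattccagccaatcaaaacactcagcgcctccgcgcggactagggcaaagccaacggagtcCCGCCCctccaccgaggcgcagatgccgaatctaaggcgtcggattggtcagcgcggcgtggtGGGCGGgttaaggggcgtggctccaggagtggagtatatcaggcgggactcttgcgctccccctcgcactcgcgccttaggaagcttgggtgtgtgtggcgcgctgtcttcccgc
The mild-cold motif stood once, 247 bases before the start, and the same letters were present in 5.38% of the 32851 promoter windows of the table. The GC box stood 3 times, at 225, 128 and 65 bases before the start, and 10.7% of all windows held it 3 times or more. None of these matches shared a base with another. The second window held 4 GC boxes and no mild-cold motif. Neither window held the cyclic AMP response element (TGACGTCA, in 1.79% of windows), the core of a heat shock element (GAANNTTC, in 7.86%) or the E-box read by clock proteins (CACGTG, in 7.15%). The first window was 65.7% G and C, against a median of 52.7% over all windows. These are matches of letters and say nothing of what is bound there in adipocytes.

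The total count per library was 92387376 to 133270973 at 0 days, 74430465 to 105322757 after 1 day and 64648178 to 91338649 after 12 days. The 10 adipocyte markers, Adipoq, Fabp4 and Plin1 among them, summed to 5503 to 6073 CPM at 0 days, 6493 to 6990 at 1 day and 5017 to 5606 at 12 days, and none of them was under 1 CPM throughout. At 12 days 5 of these 10 were called lower and 2 higher by the edgeR test used for Cirbp and Rbm3. Over all genes 16.2% were lower and 13% higher. At 1 day 2 of the 10 were lower and 2 higher, against 13.4% and 7.71% of all genes. Stromal progenitor markers were also present, at 1340 to 1397 CPM at 0 days, 1399 to 1476 at 1 day and 1132 to 1165 at 12 days, with Dpp4 and Pi16 (2 of 7) under 1 CPM in every library. Chondrocyte and osteoblast markers summed to 236 to 329 CPM over all libraries, with 1 of 5 (Bglap) under 1 CPM. The macrophage and leukocyte list also differed between groups, at 6.88 to 9.34 CPM at 0 days, 10.02 to 13.04 at 1 day and 5.22 to 6.32 at 12 days, with 3 of 5 under 1 CPM, Ptprc included. The endothelial list summed to 0.282 to 1.47 CPM and that of skeletal muscle to 0.185 to 1.70 CPM. The epithelial and mesothelial list was at 8.16 to 10.1 CPM at 0 days, 11.9 to 14.02 at 1 day and 28.2 to 42.3 at 12 days, while 5 of its 7 genes (Epcam, Krt5, Krt14, Upk3b and Wt1) stayed under 1 CPM. The part of these lists in the values of Cirbp and Rbm3 was not tested. In bulk RNA, fewer cells of a type and less RNA per cell cannot be told apart.

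Cirbp was lowest in warm adipocytes, rose about 6-fold within 1 day at 31°C and, under TMM scaling, stood lower again after 12 days, though still almost 4-fold above the warm cells. At 0 days the 5 libraries held 3660, 2605, 2753, 2416 and 2343 Cirbp reads, which came to 29.0, 28.0, 27.1, 27.5 and 25.6 CPM, the count scaled by TMM to a common library size. After 1 day they held 13074, 11598, 14752, 11699 and 17200 reads, or 167, 161, 160.4, 163 and 168 CPM. After 12 days they held 10469, 8084, 8591, 7271 and 9866 reads, or 105, 102, 104, 104 and 102 CPM. The 3 groups did not overlap in any library: every value at 12 days lay between those at 0 days and those at 1 day. The means were 27.4 ± 1.28, 164 ± 3.67 and 103 ± 1.35 CPM (SD, n = 5 each).

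Rbm3 followed another course, with a rise of almost 4-fold at 1 day that continued to almost 7-fold at 12 days under TMM scaling. The libraries at 0 days held 5679, 4325, 4217, 4610 and 4333 Rbm3 reads, or 45.1, 46.6, 41.5, 52.4 and 47.3 CPM. After 1 day they held 13433, 13298, 17431, 12537 and 18795 reads, or 172, 185, 189.5, 175 and 184 CPM. After 12 days they held 30536, 24455, 27558, 21326 and 30805 reads, or 306, 308, 335, 304 and 318 CPM. Again the groups did not overlap, but here the order was 12 days above 1 day above 0 days. The means were 46.6 ± 3.97, 181 ± 7.31 and 314 ± 12.7 CPM (SD, n = 5 each).

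**Figure D1:**
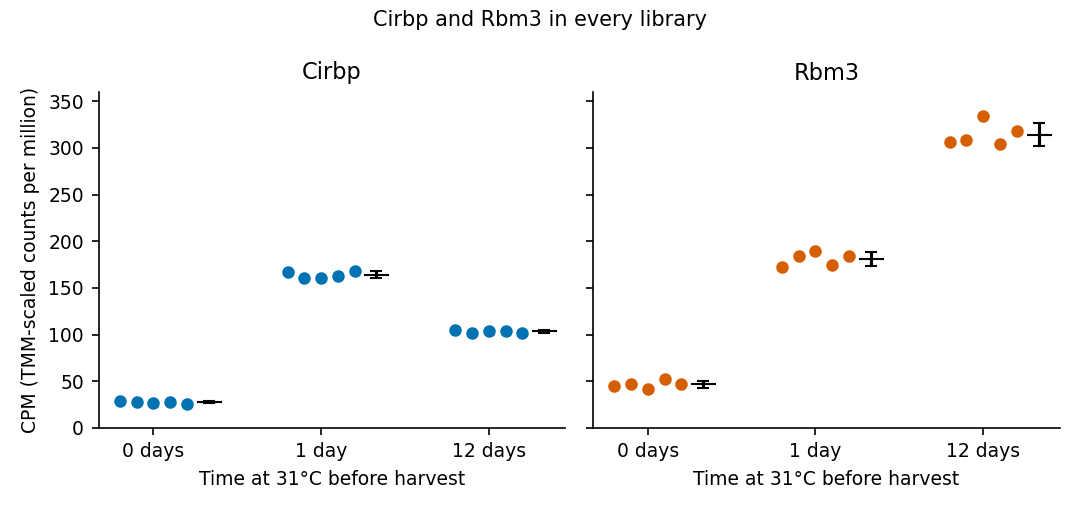
CPM (TMM-scaled read counts) of Cirbp and Rbm3 in each of the 15 libraries, by time at 31°C; points are libraries in replicate order, and the black mark with bars is the mean ± SD of 5. The Cirbp points peak at 1 day, between 160.4 and 168 CPM, while the Rbm3 points are highest at 12 days, between 304 and 335 CPM.

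Libraries of a group agreed closely for both genes. The coefficient of variation of Cirbp was 4.66%, 2.24% and 1.30% at 0, 1 and 12 days, and counting error alone would give 1.92%, 0.863% and 1.07%. For Rbm3 it was 8.54%, 4.04% and 4.03%, against 1.48%, 0.822% and 0.614% from counting. Rbm3 varied more between libraries than counting error would give at each time, most of all in the warm cells, and the spread of Cirbp at 12 days was close to counting error. The library numbers in the titles fall into separate series of 11 and 4 libraries, whose meaning the sources used here do not give. With the 11 alone, the log2 fold changes were 2.55 at 1 day and 1.89 at 12 days for Cirbp, and 1.97 and 2.76 for Rbm3.

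A gene was called where edgeR's quasi-likelihood test gave a Benjamini-Hochberg adjusted p below 0.05 with a change of more than 1.5-fold. By this test Cirbp rose by a log2 fold change of 2.58 (SE 0.031) at 1 day, with an adjusted p of 4.42e-26. The lowest 1-day library stood 5.52-fold above the highest warm one. At 12 days Cirbp was higher than in warm cells by 1.91 (SE 0.031, adjusted p 3.07e-24). Rbm3 rose by 1.96 (SE 0.045, adjusted p 6.78e-21) at 1 day and by 2.76 (SE 0.046, adjusted p 5.39e-24) at 12 days. At 1 day 7.71% of the 14293 genes tested were called higher and 13.4% lower, and at 12 days 13% were higher and 16.2% lower, so a call alone was common. The sizes were not: at 1 day Cirbp ranked 33 and Rbm3 92 by increase among the 14293 genes, and among the 12132 whose mean reached 1 CPM they ranked 4 and 15. At 12 days Cirbp ranked 252 and Rbm3 75 of all genes tested, and 94 and 17 of those that reached 1 CPM.

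**Figure D2:**
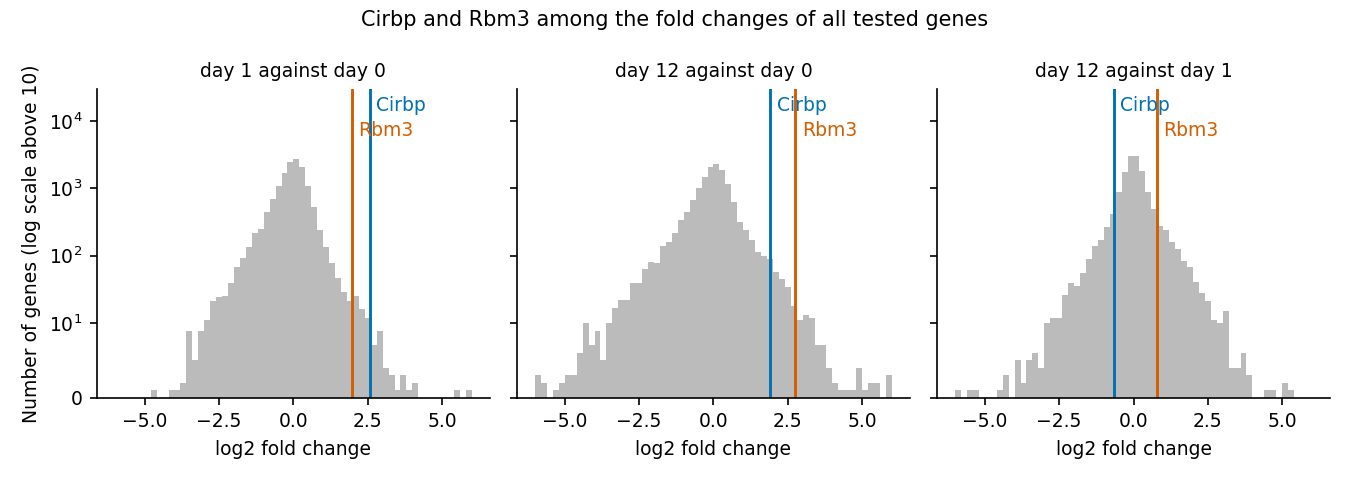
Histograms of log2 fold change over the 14293 genes tested, for 3 comparisons, with the vertical axis on a log scale above 10 genes and values beyond 6 drawn in the end bins; lines mark Cirbp (blue) and Rbm3 (orange). Both genes sit in the right tail against 0 days, and on opposite sides of 0 in the comparison of 12 days with 1 day, where Cirbp is at -0.67 under TMM scaling and at 0.12 when libraries are scaled to reference genes.

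From 1 day to 12 days the genes parted. Rbm3 rose by a further log2 fold change of 0.80 (SE 0.043, edgeR adjusted p 5.19e-14), a ratio of means of 1.74, and Cirbp fell by 0.67 (SE 0.029, adjusted p 8.63e-16), a level 1.59-fold lower. Of all genes tested, 10.6% were called higher and 8.53% lower at 12 days than at 1 day. Measured as a rise in CPM over the warm cells, the Cirbp gain at 12 days was 55.6% of its gain at 1 day, whereas the Rbm3 gain at 1 day was 50.2% of its gain at 12 days. The fall of Cirbp depended on how libraries were scaled: it was -0.49 with total counts, under the fold limit. It turned to 0.12 when scaled to the 4 of the study's PCR reference genes used here (Hprt, Tbp, Gapdh and B2m). The median of all genes was 0.80 under that last scaling, against 0.0092 under TMM. Relative to the median of all genes the change of Cirbp was -0.68 with total counts and with reference genes. The same reference genes put the rise of Rbm3 higher, at a log2 fold change of 3.59 at 12 days and 1.58 between 1 and 12 days, and the 12-day rise of Cirbp at 2.75.

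The ratio of the 2 genes within a library needs no scaling, since both counts come from the same reads. Rbm3 reads outnumbered Cirbp reads by 1.55, 1.66, 1.53, 1.91 and 1.85 to 1 in the libraries at 0 days. At 1 day the ratios were 1.03, 1.15, 1.18, 1.07 and 1.09, so the 2 genes were read almost equally often. At 12 days they were 2.92, 3.03, 3.21, 2.93 and 3.12. Every 1-day ratio lay below all of those at 0 days, and every 12-day ratio above them, with no overlap between groups. Its log2 was 0.76 ± 0.14, 0.14 ± 0.080 and 1.60 ± 0.059 (SD, n = 5 each), where counting error would give an SD of 0.035, 0.017 and 0.018.

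By an exact two-sided permutation test of the log2 ratio over the 252 ways to divide 10 libraries into groups of 5, the fall of 0.62 (SE 0.074) at 1 day had p = 0.00794. The rise of 0.84 (SE 0.070) at 12 days over 0 days and that of 1.46 (SE 0.044) at 12 days over 1 day had the same p, which is the smallest this design allows, and adjustment over the 3 tests left it at 0.00794. Rbm3 and Cirbp therefore did not change by a common factor in any of the 3 comparisons. Cirbp gained more at 1 day, by a factor of 1.54, and Rbm3 gained more at 12 days, by a factor of 1.79 over 0 days and 2.76 over 1 day. Summed, the 2 genes took 74.0 ± 4.07 CPM at 0 days, 345 ± 6.34 at 1 day and 418 ± 12.9 at 12 days, and Rbm3 made up 62.8%, 52.4% and 75.2% of that sum.

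**Figure D3:**
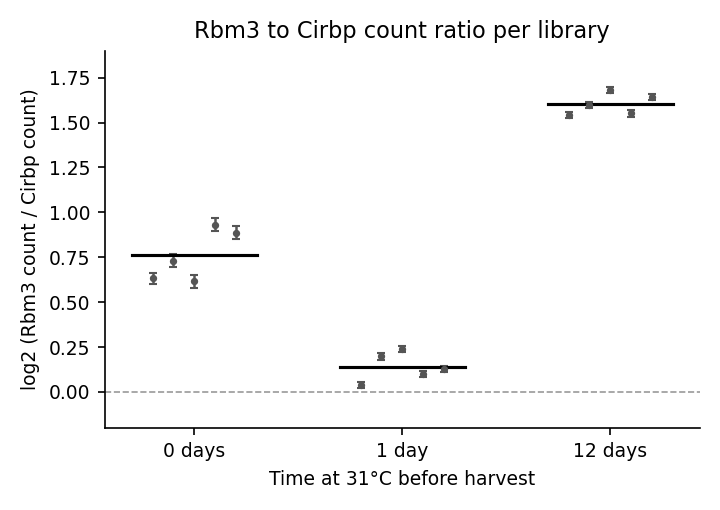
log2 of the Rbm3 count over the Cirbp count in each library, by time at 31°C; bars on the points are the SD from counting error, horizontal lines are group means, and the dashed line marks equal counts. The 5 points at 1 day lie closest to equal counts, with a mean of 0.14, and the 5 at 12 days lie highest, with a mean of 1.60.

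Which mRNA was the more abundant one depends on the transcript length used, because a longer mRNA yields more reads. With the exons of all annotated transcripts (2604 bases for Cirbp and 4698 for Rbm3), levels per kb were near each other at 0 days, at 10.5 ± 0.49 CPM per kb for Cirbp and 9.91 ± 0.85 for Rbm3. The ratio of Rbm3 to Cirbp on that scale was 0.941 at 0 days, with libraries from 0.849 to 1.06, then 0.611 at 1 day and 1.69 at 12 days. With only the basic set of transcripts (1321 and 3576 bases) it was 0.627, 0.408 and 1.12, and with the shortest basic Rbm3 transcript of 969 bases it was 2.31, 1.504 and 4.15. The change in the ratio over time is the same under every length. By level per kb over all transcripts, Cirbp ranked 3826 of 14092 genes at 0 days, 632 at 1 day and 988 at 12 days. Rbm3 ranked 4024, 1108 and 554.

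The genes with the most similar course were then listed for each. Likeness was measured as the root mean square difference of log2 CPM over the 15 libraries, each profile centred on its 0-day mean, among the 12131 other genes whose mean reached 1 CPM. The gene nearest to Cirbp was the noncoding RNA 4930528A17Rik, at a difference of 0.185, with means of 0.402, 2.38 and 1.53 CPM. Its log2 fold changes were 2.58 at 1 day, 1.94 at 12 days and -0.64 between 1 and 12 days, the last turning to 0.15 with reference genes. Next came Hmgb3, a chromatin protein of the high mobility group, at 0.336, the noncoding B230208H11Rik at 0.354, 9130024F11Rik at 0.392 and C1qtnf7, a secreted relative of complement C1q, at 0.497. Of these 4, 9130024F11Rik was at -0.35 between 1 and 12 days and the other 3 lay between 0.08 and 0.12, none past the fold limit.

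The genes nearest to Rbm3 were Myl4, an atrial and embryonic myosin light chain, at a difference of 0.193, and Nipal1, a magnesium transporter, at 0.244. Myl4 had means of 0.498, 2.11 and 3.81 CPM and log2 fold changes of 2.08 at 1 day and 2.93 at 12 days. Cpa6, a secreted carboxypeptidase, followed at 0.312, then Snhg3, a host gene of small nucleolar RNAs, at 0.332, and Fzd6, a Wnt receptor, at 0.352. Rbm3 was the 13th gene in likeness to Cirbp, at 0.611, and Cirbp the 21st in likeness to Rbm3. All 10 of these genes were lower in level than the gene they resembled.

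The 2 tested close relatives of Cirbp and Rbm3 were not called at either time under TMM scaling. Of 4 tested genes with the same layout of 1 RNA recognition motif and a glycine-rich tail, Cirbp and Rbm3 were called higher at both times. Rbmx and Rbmxl1, nuclear proteins of splicing, were not. Over all genes 7.71% were higher at 1 day and 13% at 12 days, so 0 of 2 does not set these relatives apart. With reference genes all 4 were called higher at 12 days. In this and the gene lists that follow, each count of 0 by edgeR was also 0 by DESeq2 and limma voom, and the number of genes with an unadjusted p under 0.05 is given beside it. For Rbmx and Rbmxl1 that number was 1 at 1 day and 2 at 12 days, all above 0. Rbmx was at 19.8 ± 1.56, 29.1 ± 1.70 and 22.4 ± 1.02 CPM, and its log2 fold change of 0.55 (SE 0.051, edgeR adjusted p 6.49e-10) at 1 day was under the fold limit, which it passed at 0.59 without replicate 2 of 0 days. Rbmxl1 was at 43.1 ± 1.49, 42.4 ± 0.897 and 45.7 ± 2.11 CPM. Rbmxl1 is a retrotransposed copy of Rbmx, so reads may be split between them and each is uncertain as a single gene. Another relative, Rbmxl2, had at most 1 read in any library.

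Other RNA-binding proteins with an Rbm name were called higher at shares near those of all genes, and lower at smaller shares. Of the 31 tested besides Rbm3, 2 were called higher (6.45%) and 3 lower (9.68%) at 1 day. At 12 days 4 were higher (12.9%) and 3 lower (9.68%). Over all genes 7.71% were higher and 13.4% lower at 1 day, and 13% and 16.2% at 12 days. Their median log2 fold change was -0.08 at 1 day and 0.16 at 12 days, against -0.01 and 0.01 for all genes tested, and the highest value was 0.89 at 1 day and 1.06 at 12 days. Rbm12 rose by 0.89 (SE 0.041) at 1 day, from 23.5 to 43.6 CPM. Rbm38, a regulator of mRNA stability and splicing, rose by 1.06 (SE 0.112) at 12 days, from 1.55 to 3.24 CPM. Rbm45 fell by 0.79 (SE 0.056) at 1 day and was 0.95 (SE 0.056) higher at 12 days than at 1 day. Rbm47 fell by 0.68 at 1 day and by 0.82 at 12 days, the latter turning to 0.020 with reference genes.

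Of the proteins with a cold-shock domain, the family that answers cold in bacteria, none of the 6 tested was called higher at either time. At each time 2 were above 0 at an unadjusted p under 0.05. Over all genes 7.71% were called higher at 1 day and 13% at 12 days, and 6 genes are too few to differ from that. With reference genes 4 of the 6 were called higher at 12 days, and with total counts 1. Their median log2 fold change was 0.07 at 1 day and -0.06 at 12 days. Csdc2 was called lower at 1 day, by 0.61 (SE 0.132), and at 12 days, by 0.76 (SE 0.132), from 3.10 CPM in warm cells. Its 1-day value lay under the fold limit without replicate 1 of 0 days (-0.56) or without replicate 1 (-0.55) or 5 (-0.55) of 1 day, and it was -0.56 with reference genes. With them its 12-day value turned to 0.089. Ybx2, a germ cell protein that was low here, fell by 1.29 (SE 0.183) at 12 days, from 1.97 to 0.814 CPM, and its call was lost with reference genes, at -0.46. The 1 of 6 lower at 1 day and 2 of 6 at 12 days stood beside 13.4% and 16.2% of all genes. Ybx1, an abundant member, was among those not called. Ybx3, listed as Csda, was at 0.58 at 12 days and passed the fold limit at 0.60 without replicate 1 of 12 days.

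**Figure D4:**
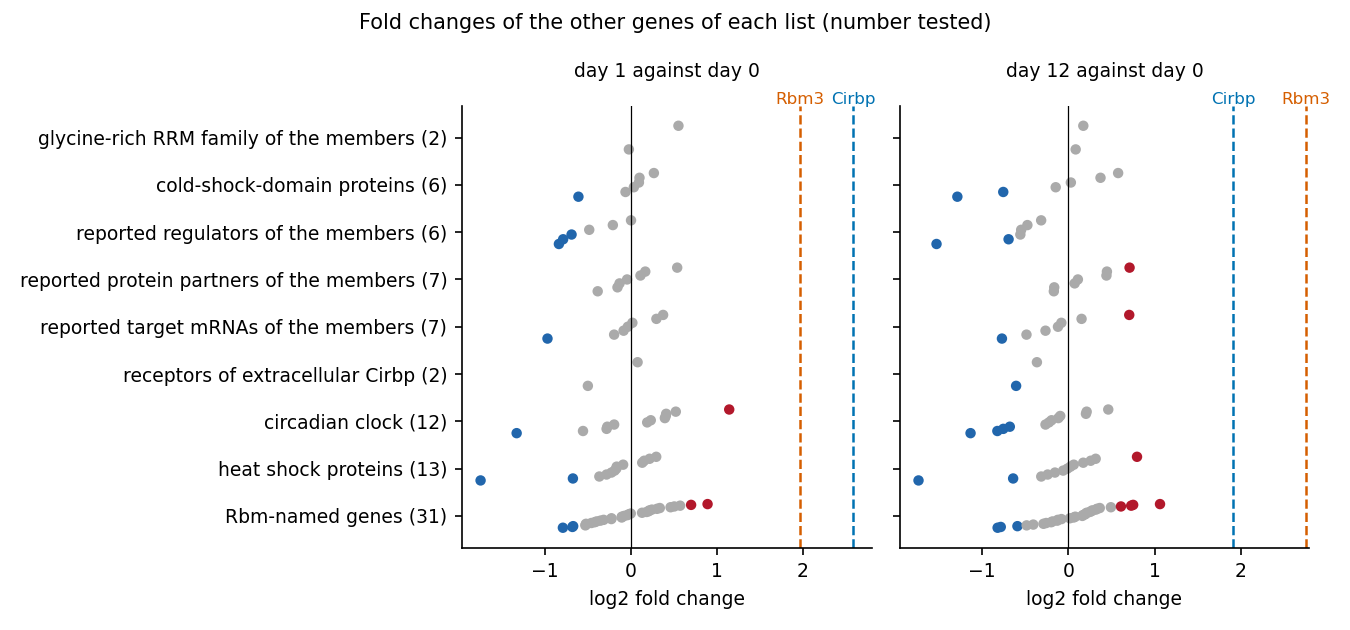
log2 fold change at 1 day (left) and 12 days (right) against 0 days for the tested genes of each list other than Cirbp and Rbm3, with the number tested in parentheses; red points were called higher, blue points lower and grey points neither, and dashed lines mark Cirbp and Rbm3. No other listed gene reached either line: the highest value was 1.14 at 1 day and 1.06 at 12 days.

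Of 6 tested genes reported to control Cirbp or Rbm3, 3 were called lower at 1 day and 2 at 12 days. Over all genes 13.4% and 16.2% were lower. None of the 6 was called higher, where 7.71% and 13% of all genes were, or lay above 0 at an unadjusted p under 0.05. Their median log2 fold change was -0.58 and -0.55. Hsf1, the master regulator of the heat shock response, fell from 36.2 to 22.5 CPM at 1 day, by 0.69 (SE 0.045), and stood at 22.4 CPM at 12 days, where the fold change of -0.69 turned to 0.15 with reference genes. Creb1, the cyclic AMP response factor, fell by 0.83 (SE 0.044) at 1 day and was at -0.32 at 12 days. Hnrnph1, a splicing factor reported to act on Rbm3 pre-mRNA, fell by 0.78 (SE 0.033) at 1 day, from 101 to 58.5 CPM, and was at -0.56 at 12 days. Ntrk2, the BDNF receptor reported to raise Rbm3 in cooled neurons, was at 320.1, 321 and 111 CPM and fell by 1.53 (SE 0.033) at 12 days. Trpv3 and Trpm8, temperature-sensing channels, had at most 8 and 5 reads in any library and were not tested. Trpv4, another channel of the list, was tested and was at 37.0, 32.0 and 25.3 CPM. Its log2 fold changes of -0.21 at 1 day and -0.55 at 12 days were under the fold limit.

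Partner proteins and target mRNAs of Cirbp and Rbm3 were called at 12 days in shares near those of all genes, of which 13% were higher and 16.2% lower, except that no partner was lower. Of 7 partners, 1 was called higher at 12 days and none at 1 day: Prmt1, the methyltransferase that modifies arginines of the glycine-rich tail, rose from 74.3 to 122 CPM, by 0.71 (SE 0.031). None was called lower, and at an unadjusted p under 0.05 3 lay above and 3 below 0 at 1 day, and 4 above and 2 below at 12 days. Of 7 reported targets, 1 was called lower at 1 day, and 1 was called higher (14.3%) and 1 lower (14.3%) at 12 days. No target was called higher at 1 day, with 2 above 0 at an unadjusted p under 0.05. Beside these 1-day counts of partners and targets, 7.71% of all genes were higher and 13.4% lower. Tert, the catalytic subunit of telomerase, fell from 4.23 to 2.18 CPM at 1 day, by 0.97 (SE 0.119), and its 12-day value of -0.77 turned to 0.068 with reference genes. Rpa2, a single-stranded DNA-binding protein, rose by 0.71 (SE 0.064) at 12 days. Of the 2 tested receptors of Cirbp released from cells, 1 was called, at 12 days, and 1 and 2 lay below 0 at an unadjusted p under 0.05 at 1 day and 12 days. That one, Tlr4, fell by 0.61 (SE 0.040) at 12 days, a value of -0.58 without replicate 2 of 12 days, where it lost the call, and of 0.23 with reference genes.

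Clock genes, whose mRNAs include reported Cirbp targets, ranged over log2 fold changes from -1.32 to 1.14 at 1 day, and over -1.14 to 0.46 at 12 days. Of 12 tested, 1 was called higher and 1 lower at 1 day, and 4 were called lower and none higher (3 above 0 at an unadjusted p under 0.05) at 12 days, with medians of 0.21 and -0.21. The 4 lower at 12 days were 33.3% of the list, against 16.2% of all genes, and 13% of all genes were higher. The 1 higher and 1 lower at 1 day were 8.33% each, near or under the 7.71% and 13.4% of all genes. The 12-day counts depended on the scaling. With reference genes 0 clock genes were lower and 7 higher, without B2m 1 and 3, and with total counts 2 and 1. Cry1, a repressor of the clock, rose from 7.24 to 16.0 CPM at 1 day, by 1.14 (SE 0.065), and fell by 0.68 (SE 0.064) from 1 day to 12 days under TMM scaling, a value that turned to 0.11 with reference genes. Npas2, a partner of the core clock factors, fell by 1.32 (SE 0.156) at 1 day and Dbp, an output factor of the clock, by 1.14 (SE 0.038) at 12 days, where the call of Dbp was lost with reference genes, at -0.30. Nr1d1, a nuclear receptor that represses clock genes, fell by 0.68 (SE 0.045) at 12 days, a value that turned to 0.16 with reference genes. The hour of harvest was not given in the sources used here.

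Heat shock proteins are best known to answer warming. Of 13 tested, 2 were called lower and none higher (4 above 0 at an unadjusted p under 0.05) at 1 day, and 2 were lower and 1 higher at 12 days, with medians of -0.17 and -0.01. The 2 called lower were 15.4% of the list at either time, near the 13.4% and 16.2% of all genes. Hsph1, a large chaperone of the Hsp110 family, fell from 95.7 ± 7.01 to 28.6 ± 1.87 CPM at 1 day, by 1.74 (SE 0.048, edgeR adjusted p 1.59e-19), and was at 28.6 ± 1.13 CPM at 12 days. Hspa1a and Hspa1b, near-identical copies of the inducible Hsp70 gene between which reads can be split, are uncertain as single genes. Hspa1a was at 5.54, 3.46 and 3.56 CPM and Hspa1b at 9.01, 8.03 and 15.6 CPM. The 12-day call of Hspa1a was lost without replicate 1 of 12 days, at -0.53. Hspa4l was 0.60 (SE 0.058) higher at 12 days than at 1 day, and fell under the fold limit without replicate 2 (0.56) or 5 (0.58) of 1 day or replicate 5 of 12 days (0.56).

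Genes next to Cirbp and Rbm3 were examined in the same fit. Of the 6 nearest tested neighbours of Cirbp, none was called higher and 2 were called lower, at both times, where 13.4% and 16.2% of all genes were lower. Atp5d lay above 0 at 1 day, at 0.14 (edgeR adjusted p 0.000242), under the fold limit, and no neighbour lay above 0 at an unadjusted p under 0.05 at 12 days. Midn, 7.62 kb before Cirbp on the same strand, was at 82.4, 81.6 and 71.4 CPM, and 1600002K03Rik, which begins 0.158 kb after the Cirbp end, was at 3.58, 2.64 and 2.41 CPM. Its 12-day log2 fold change of -0.57 passed the fold limit without replicate 3 of 0 days (-0.61) or replicate 1 (-0.60), 4 (-0.59) or 5 (-0.61) of 12 days. Efna2, a membrane-bound ephrin 6.70 kb beyond Cirbp, fell by 1.41 at 1 day and 1.74 at 12 days, and Dos (now Cbarp) fell by 0.92 and 1.01, the latter at -0.17 with reference genes, where the call was lost. Of the 6 neighbours of Rbm3, 1 was called, and it was higher at both times, where 7.71% and 13% of all genes were higher. This was Suv39h1, a histone methyltransferase 64.2 kb away. It rose by 0.81 (edgeR adjusted p 4.01e-14) at 1 day and 0.88 at 12 days, from 9.64 to 16.9 and 17.8 CPM. Wdr13, 6.08 kb from Rbm3, was at 37.0, 36.0 and 39.9 CPM.

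**Figure D5:**
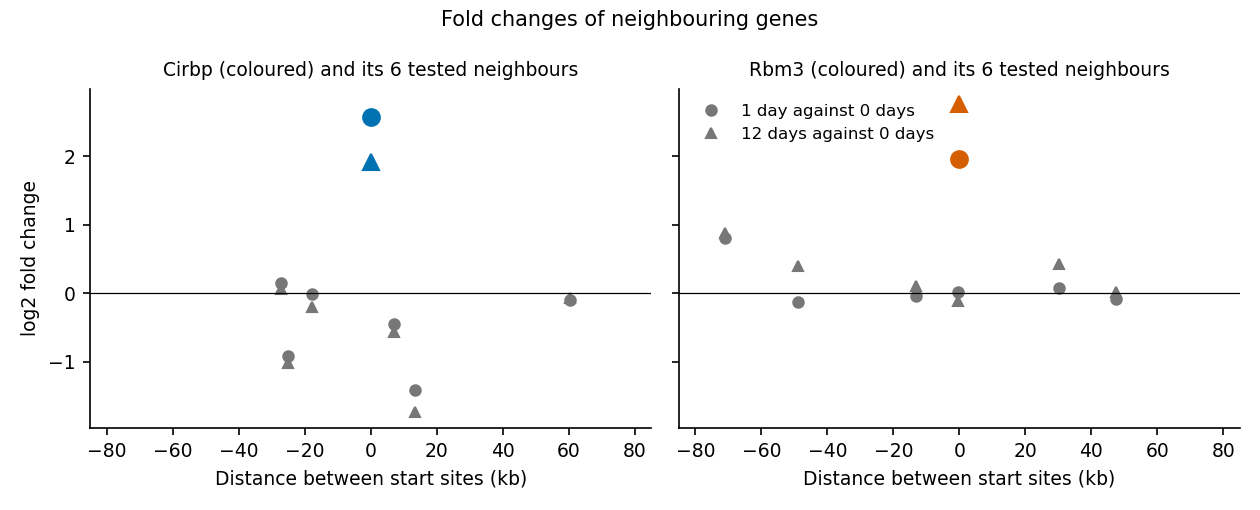
log2 fold change against 0 days of Cirbp, Rbm3 and the 3 tested genes nearest on each side of them, by distance between start sites in kb along the chromosome; circles are 1 day and triangles 12 days. Each coloured symbol stands above all of the grey neighbours in its panel, of which the highest is Suv39h1 at 0.81 and 0.88.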

How the data were processed

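RNA was sequenced from 15 libraries of mouse adipocytes. The authors aligned reads to mm10 with TopHat 2.0.13 and Bowtie2 2.2.1 and counted reads per gene with HTSeq; these raw counts were deposited and are the values used. Of the gene rows, 18468 of 18804 matched GENCODE vM21. The authors also deposited regularized log2 values, used for 1 alternative, and DESeq2 tables of mean scaled counts, fold changes and p-values, which were not used.

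Genes were filtered with filterByExpr (minimum count 10) and scaled by TMM (factors 0.9459 to 1.094), and all 15 libraries were fitted together with edgeR 4.0.16 in R 4.3.3 (quasi-likelihood test). Log2 CPM for likeness had a prior count of 2. SEs were taken as the log2 fold change divided by the root of F. Permutation tests used scipy 1.17.1. A count of 3 in place of 0 corresponds to 0.0225 to 0.0464 CPM, counting error only.

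The genes, lists and tests were chosen with earlier results of these data known. Up to 4 genes of each list were named, those called with the largest change or else the highest in level, with the 5 genes most like each of Cirbp and Rbm3 and 3 tested neighbours on each side. Outside that rule, Rbmx, Rbmxl2, Ybx1, Ybx3, Trpv3, Trpv4 and Trpm8 were named after their values were seen. Alternatives changed the scaling, filter, test, threshold, covariate and libraries; reference genes without B2m was added after seeing the data. Some items are not reported here.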

Additional observations from a re-analysis of the deposited data

Results flagged for a closer look

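The response at 12 days differed from that at 1 day for both genes, by the direct test of 12 days against 1 day in the edgeR fit. The difference was -0.67 on the log2 scale for Cirbp (5 of 5 libraries at 12 days below all 5 at 1 day) and 0.80 for Rbm3 (5 of 5 above), so the 2 went opposite ways under TMM scaling. The sign of the Cirbp difference depended on the scaling, while the opposite movement relative to each other, 1.46 in the log2 ratio, did not use any. No library stood apart from its group in the 9 sets of values checked (3 groups for each gene and for the ratio), where chance gives about 1 in 20.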

How the results depend on the processing

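Of 225 values of Cirbp, Rbm3 and their ratio under an alternative, 222 kept their direction and, where tested, their side of the threshold. The ratio was not tested under the replicate block or with the larger number series alone. The 3 of the 225 that changed were those of Cirbp from 1 to 12 days. They were -0.49 with total counts, -0.31 with reference genes without B2m and 0.12 with the reference genes (edgeR adjusted p 0.00852). Under these scalings the median of all genes in that comparison was 0.182, 0.371 and 0.799, against 0.0092 by TMM. The value of Cirbp relative to that median was -0.68 under each. The reference set held only Hprt, Tbp, Gapdh and B2m, and at 12 days B2m fell by 2.12 and Gapdh by 0.70 against 0 days. With it 93.8% of calls at 12 days were higher, against 44.4% by TMM, 64.1% with total counts and 80.9% without B2m. With 1 library left out at a time, Cirbp lay between 2.56 and 2.60 at 1 day, 1.89 and 1.93 at 12 days, and -0.68 and -0.66 between them, and Rbm3 between 1.92 and 2.01, 2.72 and 2.80, and 0.77 and 0.81; the log2 ratio changed by -0.66 to -0.58, 0.81 to 0.89 and 1.44 to 1.49. With reference genes the 12-day values of context genes also turned: Tert to 0.068, Csdc2 to 0.089, Npas2 to 0.078, Hsf1 to 0.15, Nr1d1 to 0.16, Hspa1a to 0.20, Tlr4 to 0.23, Rbm47 to 0.020, Midn to 0.63, 2900002K06Rik to 0.73 and Mum1 to 0.77, and between 1 and 12 days Cry1 to 0.11 and 4930528A17Rik to 0.15. Of 54 counts of list genes called, reference genes moved 27 by over 1.5 times, without B2m 23 and total counts 16. A mean of at least 10 CPM moved 12 and adjusted p alone 44. Leaving out each library in turn moved 7, the larger number series alone 3 and no filter on low counts 1. DESeq2, its size factors, limma voom, the number series as a covariate and only the 2 groups compared moved none. Adjusted p alone called 12 Rbm-named genes higher at 1 day in place of 3, and reference genes called 25 at 12 days in place of 5. Replicate numbers did not pair libraries (same-number correlations -0.03 to 0.04); the replicate block gave 2.58, 1.91 and -0.67 for Cirbp and 1.96, 2.76 and 0.80 for Rbm3 and changed none of these calls. Depth left the SD of the log2 ratio from counting at 0.037 or less in each library.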
